A study of Mus musculus with 4 samples.

Results

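The bone morphogenetic protein (BMP) receptor pathway was followed in mouse lung endothelial cells through 10 genes: the receptors Bmpr2, Acvrl1 and Eng, the receptor-activated Smads Smad1, Smad5 and Smad9, the inhibitory Smad6, and the Id genes Id1, Id2 and Id3. They were chosen by name as the receptor pathway linked to pulmonary hypertension and its direct targets, and all 10 were found among the 17915 coding genes of the table. The study compared gene expression between lung endothelial cells that had or had not switched on alpha smooth muscle actin during the fibrosis that follows narrowing of the aorta (transverse aortic constriction, TAC). Bulk RNA sequencing gave 4 libraries: 2 of tdTomato+ cells, whose actin recorder had fired at some time, and 2 of ZsGreen+ cells, endothelial cells without that record. Every library came from mice of genotype Cdh5-CreER;aSMA-LSL-Dre;NR1 treated with tamoxifen 5 times and taken 6 weeks after TAC, so both groups carry the same alleles, drug and operation, and neither is an unoperated control. Cdh5-CreER is a tamoxifen-inducible recombinase active in endothelium, and the Dre recombinase under the actin gene acts once Cre has removed its stop. The labels call the 2 libraries of each group biological replicates, give no age and do not say which mice they came from. Each p-value therefore rests only on the spread of these libraries, which the tests pool in part over all genes.

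In endothelium, circulating BMP9 and BMP10 bind the type I receptor ALK1, encoded by Acvrl1, together with a type II receptor such as BMPR2, and endoglin, encoded by Eng, presents the ligand to them. The activated type I receptor phosphorylates SMAD1, SMAD5 and SMAD9, which enter the nucleus with SMAD4 and switch on Id1, Id2, Id3 and the feedback inhibitor Smad6. Loss of BMPR2 function is the best known inherited cause of pulmonary arterial hypertension, and loss of endoglin or ALK1 causes hereditary haemorrhagic telangiectasia, a disease of malformed vessels.

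RefSeq promoter windows of build GRCm38.p6, from 250 bases before to 50 after a start site, were at hand for 8 of the 10 genes. Those of Smad6, Id2 and Id3 are printed because these are the direct targets among the 8. Each run holds the 250 bases before the start site and the 10 that follow, 5′ to 3′ on the gene's strand, and capitals mark a Smad element searched for on both strands: GGCGCC, to which SMAD1 and SMAD5 are known to bind, or the palindrome GTCTAGAC.
Smad6, chr9:64022050-64022309, minus strand: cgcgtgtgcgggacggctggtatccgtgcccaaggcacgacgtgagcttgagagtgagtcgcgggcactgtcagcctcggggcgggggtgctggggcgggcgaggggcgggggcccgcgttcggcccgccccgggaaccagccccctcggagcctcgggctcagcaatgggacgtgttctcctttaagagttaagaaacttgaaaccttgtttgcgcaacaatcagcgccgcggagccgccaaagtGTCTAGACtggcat
Id2, chr12:25096083-25096342, minus strand: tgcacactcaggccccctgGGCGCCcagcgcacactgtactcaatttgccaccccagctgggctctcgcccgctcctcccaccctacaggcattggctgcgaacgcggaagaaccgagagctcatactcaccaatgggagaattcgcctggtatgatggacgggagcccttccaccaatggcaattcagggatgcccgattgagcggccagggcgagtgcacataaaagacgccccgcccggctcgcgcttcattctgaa
Id3, chr4:136143572-136143831, plus strand: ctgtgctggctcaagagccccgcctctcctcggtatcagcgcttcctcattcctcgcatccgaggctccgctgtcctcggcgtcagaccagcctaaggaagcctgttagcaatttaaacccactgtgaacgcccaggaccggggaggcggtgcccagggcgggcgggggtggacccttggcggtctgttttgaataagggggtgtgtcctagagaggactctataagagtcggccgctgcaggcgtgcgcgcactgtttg
The Smad6 run holds GTCTAGAC, with its first base 4 bases before the start site of its window. That start site and the element both lie inside the annotated span of Smad6, which begins at 64022085 on the minus strand. This palindrome was found in 70 of 32851 promoter windows (0.21%). The Id2 run holds GGCGCC, starting 231 bases before the start site, and the Id3 run holds neither element. GGCGCC was also found in windows of Bmpr2, Smad5 and Smad9, in 4 of the 8 genes in all, against 13.38% of all genes with a window. The shorter GTCT, which lies within GTCTAGAC on both strands, was found in 6 of the 8 genes and in 89.51% of all genes. These are matches of letters and say nothing of binding.

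The libraries held between 17050673 and 18574737 estimated counts. Acta2, whose locus the recorder reads, stood at 303.9 and 527.5 CPM (counts in a library divided by its TMM-scaled size) in the tdTomato+ libraries and at 87.6 and 82.9 CPM in the ZsGreen+ libraries (log2 fold change 2.29, SE 0.29, edgeR adjusted p = 0.0435). The 10 endothelial markers, among them Pecam1 and Cdh5, were read in every library, with a summed level of 8846 and 8501 CPM in the tdTomato+ libraries and 11353 and 9585 CPM in the ZsGreen+ libraries. Of those 10 markers, 4 were lower and 2 higher in both tdTomato+ libraries than in both ZsGreen+ libraries, a pattern that 18.2% (lower) and 19.9% (higher) of all genes tested showed, and the marker counts that follow are to be read against these shares. Over all 13177 genes tested, edgeR called 22 higher and 18 lower, which is the background for marker genes said to be called. Venous markers summed to 4431 to 5282 CPM in tdTomato+ and 1873 to 2101 CPM in ZsGreen+ libraries. edgeR called 3 of 10 higher, and 6 of 10 were higher in both tdTomato+ libraries. The same was so for 6 of 10 fibroblast markers (243 to 447 against 101 to 125 CPM) and 6 of 10 alveolar epithelial markers (480 to 565 against 213 to 357 CPM), of which 1 more was lower. Macrophage and monocyte markers (2587 to 5426 against 708 to 3002 CPM) overlapped in their sum, with 3 of 10 higher. Lymphatic markers summed to 720 to 1015 against 982 to 1282 CPM, with 7 of 8 lower and 4 of 8 called lower. Of the capillary markers, 8 of 10 aerocyte (aCap) genes were lower and 1 higher (1805 to 1953 against 1849 to 1992 CPM in sum). The aCap marker Prx was called lower (log2 fold change -1.74, adjusted p = 0.0305 by edgeR) and is named here after its values were seen. In the same libraries 4 of 10 general capillary (gCap) genes were lower and 1 higher (8520 to 8724 against 8760 to 9878 CPM). Arterial markers summed to 2170 to 3278 against 2163 to 2310 CPM, with 5 of 10 higher and 2 lower. Smooth muscle and pericyte markers summed to 1365 to 1834 against 928 to 1330 CPM, with 3 of 10 higher and 1 lower. No gene of these lists was at 0 in any library. Markers of T, B and NK cells summed to at most 20.1 CPM, with Cd4 at 0 in some libraries, and their part in any result was not tested. In bulk RNA, fewer cells of a type and less RNA per cell cannot be told apart.

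None of the 10 genes was called different between tdTomato+ and ZsGreen+ cells, although Acta2 and the BMP inhibitor Mgp were. edgeR called 0 of 10 at an adjusted p under 0.05, where it called 0.304% of the 13177 genes tested. At an unadjusted p under 0.05 it marked 1 of 10, Acvrl1, against 8.76% of all genes. DESeq2 also called 0 of 10 (2.45% of genes with an adjusted p) and limma-voom 0 of 10 (0.25%), and each marked 1 of 10 at an unadjusted p under 0.05 (7.05% and 9.35% of all genes). The median log2 fold change was -0.11 over the 10 genes and -0.01 over all genes tested.

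For 9 of the 10 genes the 95% interval of the log2 fold change lay within -1 and 1, that is within a factor of 2 in either direction, which was so for 58.7% of all genes tested. The exception was Smad9, the least abundant. The share over all genes takes in genes with few counts and was not matched to the counts of the 10 genes. An interval that includes 0 does not show that the groups are alike. By CPM, the groups did not overlap for 3 of 10 genes, against 38.1% of all genes. The tdTomato+ libraries were higher for Id2 (19.9% of all genes) and lower for Acvrl1 and Smad1 (18.2%). TPM, the transcript level, divides by gene length and, unlike the CPM used here, carries no TMM scaling. By TPM the groups did not overlap for Id2 and Acvrl1 only. On log2(TPM + 1) the log2 fold change was 0.63 for Id2 and -0.34 for Acvrl1, against 0.47 and -0.50 by edgeR.

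**Figure D1:**
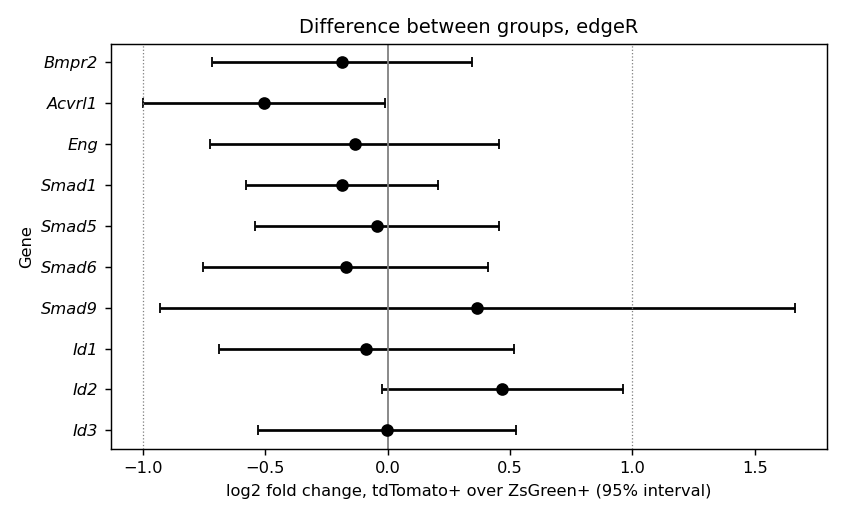
Points give the edgeR log2 fold change of each gene, tdTomato+ over ZsGreen+, and bars the 95% interval, with 2 libraries per group. Dotted lines mark -1 and 1; every interval except that of Smad9 lies between them, and the interval of Acvrl1 ends just below 0.

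On the TPM scale, which allows levels of different genes to be set side by side, the 10 genes spanned from 0.42 to 2054 TPM. Eng and Id3 were the most abundant, followed by Acvrl1, Id1 and Smad6, then Smad1 and Id2, then Bmpr2 and Smad5, with Smad9 last. Most neighbours in this order were apart in every library. Smad1 and Id2 overlapped, at 87.2 to 103.3 TPM and 56.6 to 100.9 TPM, as did Bmpr2 and Smad5, at 18 to 30.8 TPM and 13 to 19 TPM. The order of group means was the same in both groups but for Smad1 and Id2, which changed places. That change rested on tdTomato+ library 1, with Id2 at 100.9 and Smad1 at 93.5 TPM. In tdTomato+ library 2 Id2 was at 86.2 and Smad1 at 91.8 TPM, and Smad1 was also the higher in both ZsGreen+ libraries.

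**Figure D2:**
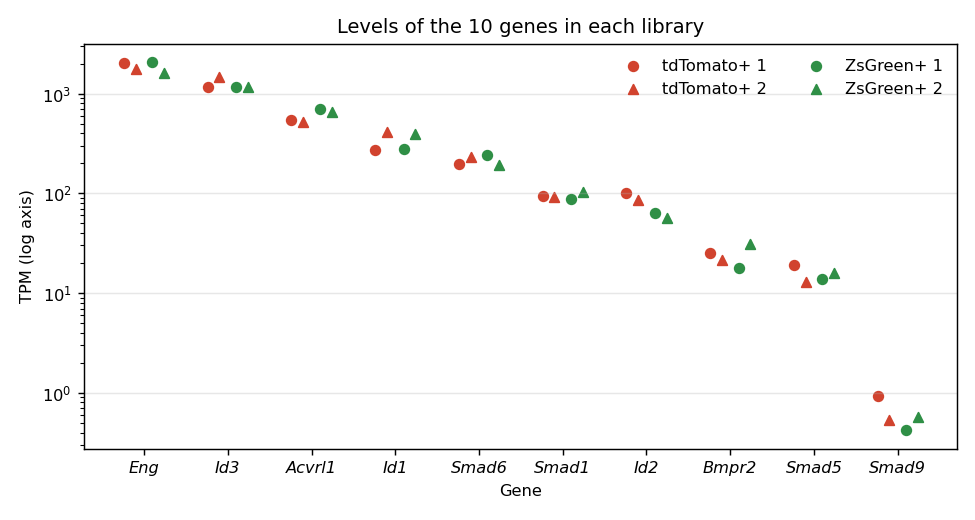
Each point is the deposited TPM of a gene in one library, on a log axis, ordered by the mean in ZsGreen+ cells. Eng reached 2054 TPM and Smad9 stayed at or below 0.92 TPM. Most neighbours lay apart, but the points of Smad1 and Id2 overlapped, as did those of Bmpr2 and Smad5.

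Among the receptors, Eng and Acvrl1 were read at higher levels than Bmpr2 by both CPM and TPM. Acvrl1 was the one that stood lower in tdTomato+ cells. Acvrl1 (NCBI Gene 11482, chromosome 15, 101128522 to 101145336 in GRCm38), the type I receptor ALK1, stood at 1135 and 1152 CPM in tdTomato+ libraries 1 and 2 and at 1818 and 1424 CPM in ZsGreen+ libraries 1 and 2. Both tdTomato+ libraries lay below both ZsGreen+ libraries, and the 2 ZsGreen+ libraries differed more from each other than the 2 tdTomato+ libraries did. The log2 fold change was -0.50 (SE 0.21, 95% interval -0.998 to -0.01), with an unadjusted p of 0.047 and an edgeR adjusted p of 0.558, so the difference was not called. In TPM the level was 531 ± 12.9 in tdTomato+ cells and 673 ± 37.3 in ZsGreen+ cells (SD, n = 2). The summed endothelial markers were also lower in both tdTomato+ libraries, with 4 of 10 markers lower and 2 higher. Of the aCap markers 8 of 10 were lower and 1 higher, and their sums overlapped between groups. Of the gCap markers 4 of 10 were lower and 1 higher. Over all genes tested these shares were 18.2% lower and 19.9% higher. As a percentage of the endothelial marker sum Acvrl1 was 12.8 and 13.6 in tdTomato+ cells and 16.0 and 14.9 in ZsGreen+ cells. The part of the endothelial and capillary RNA in the Acvrl1 difference was not tested.

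Eng (NCBI Gene 13805, chromosome 2, 32646595 to 32682669), the coreceptor endoglin, was read at 4025 and 3657 CPM in the tdTomato+ libraries and at 5071 and 3366 CPM in the ZsGreen+ libraries. The ZsGreen+ libraries held both the highest and the lowest value, so the groups overlapped. The log2 fold change was -0.14 (SE 0.25, 95% interval -0.73 to 0.45, edgeR adjusted p = 0.946). Its last bases overlap the annotated span of Fpgs, and the strand setting is not stated. The estimated counts of Eng were whole numbers in every library, and the part of Fpgs reads in them was not tested. The ratio of Eng to Acvrl1 in TPM was 3.73 and 3.34 in tdTomato+ cells and 2.94 and 2.49 in ZsGreen+ cells. The groups lay apart in this ratio. By TPM they lay apart for 37.0% of all genes tested, which is a share of single genes and not of ratios.

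Bmpr2 (NCBI Gene 12168, chromosome 1, 59764279 to 59879014 in the deposited table), the type II receptor, stood at 166.9 and 145.8 CPM in the tdTomato+ libraries and at 145.3 and 210.5 CPM in the ZsGreen+ libraries. The spread between the ZsGreen+ libraries covered both tdTomato+ values. The log2 fold change was -0.19 (SE 0.22, 95% interval -0.72 to 0.35, edgeR adjusted p = 0.903). Without ZsGreen+ replicate 1 it was -0.43 and without ZsGreen+ replicate 2 it was 0.10, so its sign rested on single libraries. Acvrl1 exceeded Bmpr2 by 21 to 38.9 times in TPM. The highest ratio was in ZsGreen+ library 1, where Bmpr2 was lowest and Acvrl1 highest. TPM divides by gene length and CPM does not, and the part of length in this ratio was not tested. By CPM Bmpr2 was near Smad1, at 162.2 to 188.1 CPM, and Id1, at 128.1 to 205.2 CPM. By TPM Bmpr2 ranked 4109 to 5142 in libraries with 14969 to 15747 genes with a count.

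No receptor-activated Smad was called between groups, and Smad1 supplied most of their RNA. Smad1 (NCBI Gene 17125, chromosome 8, 79338395 to 79399428) stood at 162.2 and 167.3 CPM in the tdTomato+ libraries and at 187.3 and 188.1 CPM in the ZsGreen+ libraries. The 2 libraries of each group nearly coincided and the groups lay apart, by a log2 fold change of -0.19 (SE 0.17, 95% interval -0.58 to 0.20, edgeR adjusted p = 0.854). In TPM the groups overlapped, at 93.5 and 91.8 against 87.2 and 103.3. Smad5 (NCBI Gene 17129, chromosome 13, 56703010 to 56742378) was read at 74.7 and 53.7 CPM in the tdTomato+ libraries, on either side of the 67.1 and 65.3 CPM of ZsGreen+ cells. Its log2 fold change was -0.04 (SE 0.21, 95% interval -0.54 to 0.45, edgeR adjusted p = 0.979).

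Smad9 (NCBI Gene 55994, chromosome 3, 54755455 to 54801662), which encodes the receptor-activated Smad also called SMAD8, had few reads, with 54 and 34 estimated counts in tdTomato+ libraries and 27 and 36 in ZsGreen+ libraries. This was 2.97 and 1.79 CPM against 1.71 and 1.97 CPM, and the groups overlapped. Its log2 fold change of 0.37 (SE 0.55, 95% interval -0.93 to 1.66, edgeR adjusted p = 0.928) leaves a 3.17-fold higher level in tdTomato+ cells within the interval. Of the summed TPM of the 3 receptor-activated Smads, Smad1 made up 82.4% to 87.2%, Smad5 12.3% to 16.8% and Smad9 0.414% to 0.811%. That sum was 109 ± 5.76 TPM in tdTomato+ cells and 111 ± 12.9 TPM in ZsGreen+ cells (SD, n = 2).

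Smad6 (NCBI Gene 17130, chromosome 9, 63953076 to 64022085), the inhibitory Smad that BMP signalling switches on as its own brake, was more abundant in TPM than the receptor-activated Smads together. It stood at 327.9 and 402.6 CPM in the tdTomato+ libraries and at 489.4 and 333.1 CPM in the ZsGreen+ libraries. The highest value was in ZsGreen+ library 1, and the groups overlapped. The log2 fold change was -0.17 (SE 0.25, 95% interval -0.75 to 0.41, edgeR adjusted p = 0.922), and without ZsGreen+ replicate 1 it was 0.135. In TPM, Smad6 was 1.74 and 2.20 times the sum of Smad1, Smad5 and Smad9 in tdTomato+ cells and 2.37 and 1.59 times in ZsGreen+ cells.

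The Id genes encode helix-loop-helix proteins that lack a basic DNA-binding region and keep partner factors from binding DNA. Id3 and Id1, the more abundant of them, overlapped between groups, and Id2 stood higher in tdTomato+ cells without passing the test. Id2 (NCBI Gene 15902, chromosome 12, 25093799 to 25096092) was read at 67.2 and 60.7 CPM in the tdTomato+ libraries and at 52.8 and 39.7 CPM in the ZsGreen+ libraries. Both tdTomato+ values lay above both ZsGreen+ values. The log2 fold change was 0.47 (SE 0.21, 95% interval -0.02 to 0.96), with an unadjusted p of 0.0591 and an edgeR adjusted p of 0.593. In TPM it was 93.5 ± 10.4 against 60.05 ± 4.85 (SD, n = 2). Id2 is also expressed by leukocytes and epithelial cells. The macrophage and monocyte markers summed to 5426 and 2587 CPM in tdTomato+ libraries 1 and 2 and to 3002 and 708 CPM in ZsGreen+ libraries 1 and 2, and the alveolar epithelial markers to 480 and 565 CPM and 357 and 213 CPM. The part of these cells in the Id2 level was not tested.

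Id1 (NCBI Gene 15901, chromosome 2, 152736251 to 152737410), the Id gene most used as a readout of BMP signalling, stood at 128.1 and 205.2 CPM in the tdTomato+ libraries and at 162.7 and 191.1 CPM in the ZsGreen+ libraries. The tdTomato+ libraries held both the lowest and the highest value. The log2 fold change was -0.09 (SE 0.25, 95% interval -0.69 to 0.51, edgeR adjusted p = 0.971). Id3 (NCBI Gene 15903, chromosome 4, 136143822 to 136147320 in the deposited table) was read at 544.8 and 724.2 CPM in the tdTomato+ libraries, around the 689.8 and 581.4 CPM of ZsGreen+ cells. Its log2 fold change was -0.0024 (SE 0.22, 95% interval -0.53 to 0.53, edgeR adjusted p = 0.998). Id3 was the one gene of the 10 whose estimated counts were not whole, at 9902 to 13795 per library.

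The Id genes together reached 1532 and 1956 TPM in tdTomato+ cells and 1510 and 1622 TPM in ZsGreen+ cells, and the groups overlapped. Id3 supplied 72.4% to 77.3% of this sum and Id1 17.8% to 24.1% in every library. Id2 supplied 6.59% and 4.41% in tdTomato+ cells and 4.20% and 3.49% in ZsGreen+ cells. Of 13 such sums, shares and ratios computed over the 10 genes in TPM, the groups lay apart in 3. These were the Id2 share of the Id sum, the Smad9 share of the receptor-activated Smads, which rests on few counts, and the ratio of Eng to Acvrl1. By TPM the groups lay apart for 37.0% of all genes tested, which is a share of single genes. The sums, shares and ratios depend on one another, and no such share was computed for quantities of that kind.

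**Figure D3:**
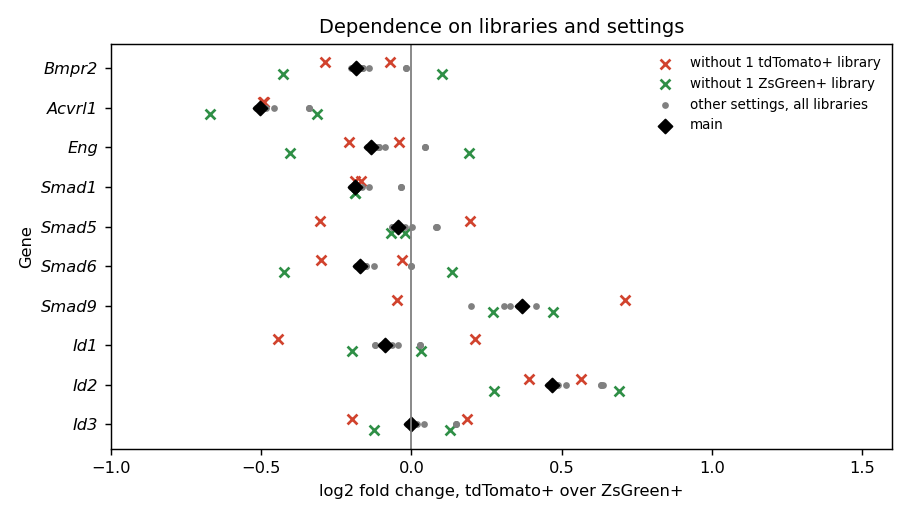
Black diamonds give the main log2 fold change of each gene, crosses the value without one library (red for tdTomato+, green for ZsGreen+) and grey dots other settings with all libraries. Acvrl1 (-0.67 to -0.31) and Smad1 (-0.19 to -0.17) stayed below 0 and Id2 above 0 (0.27 to 0.69) when any single library was left out. The groups of these genes did not overlap by CPM (38.1% of all genes), so leaving out a library could hardly turn their sign. Bmpr2, Eng, Smad5, Smad6, Smad9, Id1 and Id3 lay on both sides of 0.

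Around the 10 genes, 8 lists of other pathway genes held 77 tested genes, and 1 of them was called. That gene was Mgp, matrix Gla protein, a secreted inhibitor of BMP ligands and of calcification. It was higher in tdTomato+ libraries (log2 fold change 2.22, SE 0.24, edgeR adjusted p = 0.0305). Fibroblast markers also summed higher there, at 243 to 447 against 101 to 125 CPM. The part of fibroblast RNA in the Mgp difference was not tested. At an unadjusted p under 0.05 edgeR marked 16 of the 77 (8.76% of all genes), and the median log2 fold change over the 77 was -0.03.

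None of 4 ligands tested was called. Bmp4 stood at 199.3 and 197.3 CPM in the tdTomato+ libraries and at 107.8 and 74.1 CPM in the ZsGreen+ libraries (log2 fold change 1.13, SE 0.22, edgeR adjusted p = 0.144). Bmp6 was read at 196.7 and 170.6 CPM, with 324.5 and 243 CPM in ZsGreen+ libraries (log2 fold change -0.63, SE 0.21, edgeR adjusted p = 0.434). The groups did not overlap for Bmp4, higher in tdTomato+ cells (19.9% of all genes tested), or for Bmp6, lower in them (18.2%). Of 8 extracellular modulators tested, 1 was called higher, Mgp. The next by p were Fstl1, a follistatin-like secreted protein, at 1.298 (SE 0.24), and the BMP antagonist Chrd at 1.57 (SE 0.50), neither called. The part of fibroblast RNA in the Fstl1 level was not tested either. Tnfrsf11b, osteoprotegerin, lay at -1.79 (SE 0.59) and was not called.

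None of 10 other receptors and coreceptors was called, with log2 fold changes from -0.45 to 0.76. The largest was that of Tgfbr1, the type I receptor for TGF-beta, at 19.2 and 14.5 CPM against 9.43 and 10.4 CPM (0.76, SE 0.28, edgeR adjusted p = 0.47). None of the 4 other Smads was called. Smad3, which carries TGF-beta signals, lay at 1.17 (SE 0.28, edgeR adjusted p = 0.216), and Smad4, the partner shared by both arms, at -0.72 (SE 0.27, edgeR adjusted p = 0.487). Smad7, the second inhibitory Smad, lay at -0.27 (SE 0.25, edgeR adjusted p = 0.859). Of 21 intracellular regulators 0 were called. Among them, Tob1, which binds receptor-activated Smads and dampens BMP signalling, lay at 0.56 (SE 0.20), and the ubiquitin ligase Smurf2 at -0.41 (SE 0.19).

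None of 17 further genes known to respond to BMP signalling in endothelium was called, and 5 of them had an unadjusted p under 0.05, against 8.76% of all genes. The 4 with the smallest p were E-selectin, Sele (1.54, SE 0.24), the arterial connexin Gja5 (2.01, SE 0.33), the arterial factor Hey2 (1.96, SE 0.38) and the peptide hormone Apln (-0.54, SE 0.17), with edgeR adjusted p from 0.0833 to 0.381. Several of these also mark vessel segments or inflammation. The 6 tested helix-loop-helix partners of the Id proteins lay between -0.32 and 0.26 with none called and none at an unadjusted p under 0.05. Tcf4, an E protein and the most abundant of those named by rank of p, stood at 546.8 and 449.6 CPM in the tdTomato+ libraries and at 363.1 and 467.4 CPM in the ZsGreen+ libraries. None of 10 other pulmonary hypertension genes was called. Atp13a3, a polyamine transporter, was read at 29.7 and 39 CPM, with 12 and 17 CPM in ZsGreen+ libraries (log2 fold change 1.25, SE 0.27, edgeR adjusted p = 0.176), and Aqp1, the water channel aquaporin 1, at 3825 and 3733 CPM against 5800 and 4497 CPM (-0.45, SE 0.21, edgeR adjusted p = 0.637).

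**Figure D4:**
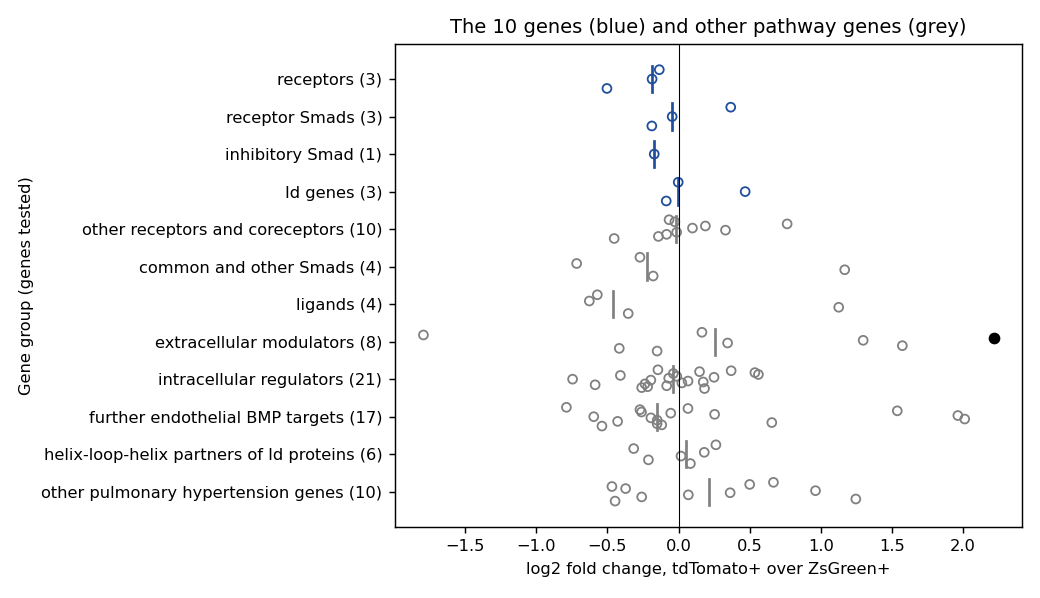
Each circle is the edgeR log2 fold change of one tested gene, tdTomato+ over ZsGreen+, with the 10 genes in blue and other pathway lists in grey; vertical bars are medians. The single filled circle is Mgp at 2.22, and the 10 genes lie between -0.50 and 0.47.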

How the data were processed

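RNA was extracted with the RNeasy Micro kit and amplified with a Discover-sc kit before library preparation, per the labels' protocols; the protocols name no molecular identifiers, so reads and molecules need not correspond. RSEM 1.3.1, DESeq2 1.4.5 and the builds mm10 and GRCm38 are named in the submitters' processing notes, without roles; the aligner and strand setting are not stated. The deposited estimated counts (the read_count columns) were rounded to whole numbers for tests, and TPM was used as the authors deposited it; 8 further columns of per-sample values were not used. Of 17915 gene identifiers 17858 matched RefSeq's table of GRCm38.p6; for Bmpr2 and Id3 the deposited span is longer than RefSeq's and is the one printed.

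edgeR 4.0.16 (R 4.3.3) compared 2 tdTomato+ with 2 ZsGreen+ libraries over the whole table by its two-sided quasi-likelihood test, with TMM factors of 0.927 to 1.045, filterByExpr at a minimum count of 10 (13177 genes) and Benjamini-Hochberg adjustment; calls are at an adjusted p under 0.05. CPM uses TMM-scaled library sizes, SE divides the size of the log2 fold change by the root of F, and intervals use the total degrees of freedom. An exact permutation test cannot go below p = 0.333 here and was not used. Scripts were tested on simulated data. Protein sequences were not analysed here. The alternatives were DESeq2 1.42.0, limma 3.58.1 with voom or on log2 of TPM plus 1 or 0.1, RLE and upper quartile factors, other filters, each library left out and a replicate block. The members, lists and tests were chosen with earlier results of these data known. Named are the 10 genes, Acta2, up to 4 genes per pathway list with the smallest p and at least 1 CPM, and the 3 genes nearest in pattern to Id1 and to Bmpr2.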

Additional observations from a re-analysis of the deposited data

How the results depend on the processing

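No alternative called any of the 10 genes; the smallest adjusted p was 0.155, for Id2 without ZsGreen+ replicate 1, and 0.231 for Acvrl1 without ZsGreen+ replicate 2. Of 137 log2 fold changes recomputed, 113 kept their sign and 24 turned. The cause was not tested. With upper quartile factors Smad5 was 0.003 and Id3 0.042, and with a minimum count of 50 Id3 was 0.018, a filter that Smad9 did not pass. On log2(TPM + 1), with or without a filter, Eng was 0.045, Smad5 0.083, Id1 0.029 and Id3 0.148, and on log2(TPM + 0.1) they were 0.045, 0.086, 0.029 and 0.148; the TPM filter removed Smad9. Leaving out one library gave -0.426 to 0.103 for Bmpr2, -0.404 to 0.193 for Eng, -0.305 to 0.196 for Smad5, -0.425 to 0.135 for Smad6, -0.047 to 0.709 for Smad9, -0.445 to 0.211 for Id1 and -0.199 to 0.186 for Id3. Where a group has 1 library left, it is assumed to vary like the other.

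The count of all genes called moved from 40 (22 higher, 18 lower) to 331 with DESeq2, 129 without a filter on low counts, 22 on log2(TPM + 0.1), and 0 by limma on log2(TPM + 1) without a filter, where 1508 genes had an unadjusted p under 0.05. It was 4 to 303 when one library was left out (tdTomato+ replicate 1 left out, 17; tdTomato+ replicate 2, 4; ZsGreen+ replicate 1, 303; ZsGreen+ replicate 2, 26). With the replicate number as a block it was 935, with 0 of the 10 genes called (smallest adjusted p 0.21, Id2) and Acvrl1 and Id2 at an unadjusted p under 0.05. The labels do not say that numbers pair libraries; over all genes tested the differences between replicates 1 and 2 of the 2 groups correlated at 0.455, across genes, which are not independent. The count of genes whose groups do not overlap, 3, was 2 by TPM, an alternative chosen after seeing the data. Smad9 had the fewest estimated counts of the 10 genes, 27 to 54, and the widest interval; the part of depth in it was not tested.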

Other observations

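Id1 was higher in the library numbered 2 than in the library numbered 1 in both groups, by 0.68 on the log2 CPM scale in tdTomato+ cells and by 0.23 in ZsGreen+ cells. Its difference between groups, -0.09, was smaller than either. For 5 of the 10 genes, Eng, Smad1, Smad5, Id1 and Id2, the difference between the 2 numbers had the same sign in both groups, and for Bmpr2, Acvrl1, Smad6, Smad9 and Id3 it had opposite signs. Whether equal numbers share an animal or a day is not in the labels.

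The genes whose pattern over the 4 libraries was most like that of Id1, by Euclidean distance of centred log2 CPM among 6950 genes at 20 CPM or more, were Lta4h (0.05), Acot7 (0.07) and Etfdh (0.08); Id3, the nearest of the 10 genes, was at 0.40. For Bmpr2 they were Acap2 (0.04), Fam120a (0.04) and Klf7 (0.05), with Smad1 at 0.41 as the nearest of the 10. Over 4 libraries such distances are descriptions only.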
